A study of Mus musculus with 3 samples.

Results

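The 8 genes described here carry growth factor signals between the mesenchyme and the epithelium of the thymus: the ligand genes Fgf7, Fgf10, Bmp4, Igf1 and Wnt4, and the receptor genes Fgfr2, Bmpr1a and Igf1r. They were chosen by name, as 8 of the 32285 genes of the expression matrix, and were read as counts of unique molecular identifiers (UMIs, 1 per captured mRNA molecule). Ligands were read in mesenchymal cells, receptors in epithelial cells, and Wnt4 in both. The cells came from 2 pools of wild-type C57BL/6J mouse cultures on culture day 13, labelled as untreated. The FTOC pool (fetal thymic organ culture) held intact E13.5 thymic lobes. The ORFTOC pool (organoid reaggregate fetal thymic organ culture) held reaggregates of thymic epithelial cells (TECs) first grown as organoids from E16.5 thymi, E13.5 thymus cells depleted of EpCAM-positive cells, and mouse embryonic fibroblasts (MEFs). FGF7 protein, the product of 1 of the 8 genes, was in the organoid medium and also in the medium in which both pools were then cultured, to which the rho kinase inhibitor thiazovivin was added at the start.

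Each pool mixed 2 cultures before 1 antibody hashtag was added, so a pool is 1 sample. No test between pools was possible, no p-value is given, and every interval (95%) covers counting error only, not the spread between cultures. The hashtags assigned 8392 cells, 4247 to ORFTOC and 4145 to FTOC, all from 1 library. Mesenchymal cells numbered 227 in ORFTOC (5074028 UMIs, median 20399 per cell) and 64 in FTOC (1166053 UMIs, median 16699). They were 5.34% and 1.54% of the cells of their pools. Epithelial cells numbered 1236 in ORFTOC (17233219 UMIs) and 966 in FTOC (12418100 UMIs), with medians of 13232.5 and 12125 UMIs per cell. Levels are given as CPM, the UMIs of a gene per 1000000 UMIs of the same cells.

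All 7 mesenchymal markers, among them Pdgfra, Col1a1 and Dcn, were detected in both pools and summed to 25736 CPM in ORFTOC and 25946 CPM in FTOC. The 6 epithelial markers summed to 167 and 280 CPM in the same cells and the 6 immune markers to 131 and 39.4 CPM. Markers of mural cells summed to 1720 CPM in ORFTOC and 1815 CPM in FTOC. Summed markers of other cell types were lower, with 8.28 and 12.0 CPM for 5 endothelial genes (Cdh5 and Cldn5 at 0 in both pools), 7.29 and 3.43 CPM for 4 mesothelial genes (Upk3b and Lrrn4 at 0) and 73.7 and 54.9 CPM for 5 genes of cartilage or bone (Sp7 at 0). Sox10, a Schwann cell gene, was at 0 in both. MEFs were added only to ORFTOC and share these markers, so MEFs and thymic mesenchyme cannot be told apart in that pool.

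FGF7 and FGF10 are secreted by mesenchyme and bind the epithelial splice form of FGFR2, and this pathway is known for the growth of the fetal thymic epithelium. BMP4 acts through receptors that include BMPR1A and is known from early thymus and parathyroid development, where it favours Foxn1 expression. IGF1 signals through IGF1R, a receptor tyrosine kinase, and WNT4 is a secreted ligand of Frizzled receptors that is also known to favour Foxn1 expression in TECs. Gene counts do not separate the splice forms of Fgfr2.

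The 2 FGF ligand genes are the members that differed most between the pools, and the 250 bases before their annotated starts are shown here to place them (RefSeq, GRCm38.p6, both on the forward strand, written 5′ to 3′). The window of Fgf7 lies at chr2:126034408-126034657 and that of Fgf10 at chr13:118714449-118714698. Capitals mark GGGCGG or its reverse complement, the GC box.

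Fgf7: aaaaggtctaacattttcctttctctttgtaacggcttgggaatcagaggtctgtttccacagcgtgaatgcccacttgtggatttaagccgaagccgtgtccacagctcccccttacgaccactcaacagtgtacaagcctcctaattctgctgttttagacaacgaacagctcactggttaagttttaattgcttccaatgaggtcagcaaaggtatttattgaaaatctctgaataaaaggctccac

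Fgf10: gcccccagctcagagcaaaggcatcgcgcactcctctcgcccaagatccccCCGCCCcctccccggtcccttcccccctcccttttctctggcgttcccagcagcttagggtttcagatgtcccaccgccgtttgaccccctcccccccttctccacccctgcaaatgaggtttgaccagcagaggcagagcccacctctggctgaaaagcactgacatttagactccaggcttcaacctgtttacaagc

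Both strands of the windows of all 8 genes were searched for TATAAA and GGGCGG, motifs that do not overlap each other. TATAAA was in none of the 8 windows, against 12.4% of 32851 annotated promoter windows of the same length. GGGCGG was in the windows of Fgf10, Bmp4, Wnt4, Bmpr1a and Igf1r and in 32.7% of all windows. The windows of Wnt4, Igf1r and Bmpr1a held 44, 42 and 36 CpG dinucleotides. Those of Igf1, Fgf7, Fgf10 and Bmp4 held 5, 6, 8 and 11, and that of Fgfr2 held 2, beside a median of 6 over all windows.

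Fgf7 was lower in the mesenchymal cells of ORFTOC than in those of FTOC. It had 166 UMIs in the 227 ORFTOC cells, or 32.7 CPM (27.9 to 38.1), and 111 UMIs in the 64 FTOC cells, or 95.2 CPM (78.3 to 115). The level was thus 2.91-fold higher in FTOC, with a log2 ratio of ORFTOC over FTOC of -1.54 (-1.90 to -1.18). The share of cells with at least 1 Fgf7 UMI was 33.5% in ORFTOC (27.4 to 40.0) and 48.4% in FTOC (35.8 to 61.3). With each cell thinned to 5000 UMIs these shares were 13.8% (9.56 to 19.0) and 23.4% (13.8 to 35.7), intervals that overlap. Cells with the transcript held 2.18 UMIs of it on average in ORFTOC and 3.58 in FTOC. Immune cells, which should lack this gene, held 5 Fgf7 UMIs in all, and after thinning none had 1. The cells grouped as immune included cluster 14, 141 cells led by Pth, Chga and Mt3, with no immune marker among its leading genes.

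The size of the Fgf7 difference depended on how hashtags were read. When a cell was assigned to the hashtag with at least 3 times the UMIs of the other, 99 mesenchymal cells that the main assignment had left out joined ORFTOC, with a median of 419 UMIs of their own hashtag and 11 of the other. They held 108 Fgf7 UMIs, or 57.5 CPM (47.1 to 69.4). FTOC lost 8 cells with 33 of its 111 Fgf7 UMIs (207 CPM, 143 to 291), in which the 2 hashtags stood at medians of 274 UMIs (own) and 329.5 (other), and gained 6 cells with none. Under that assignment Fgf7 was at 39.4 CPM in 323 ORFTOC cells and 72.2 CPM in 62 FTOC cells, and the log2 ratio was -0.87, no longer past 2-fold. ORFTOC thus rose from 32.7 CPM and FTOC fell from 95.2 CPM, so that both pools took part in the shift. Why the added and lost cells had such levels was not tested.

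Fgf10 showed the widest difference of the 8 genes. The 227 ORFTOC cells held 30 UMIs, or 5.91 CPM (3.99 to 8.44), and the 64 FTOC cells held 56, or 48.0 CPM (36.3 to 62.4). FTOC was thus 8.12-fold higher, with a log2 ratio of -3.02 (-3.71 to -2.36). The transcript was found in 23 cells of each pool, which are 10.1% of ORFTOC (6.53 to 14.8) and 35.9% of FTOC cells (24.3 to 48.9). After thinning the shares were 2.67% (0.985 to 5.71) and 18.8% (10.1 to 30.5), which do not overlap. No immune cell carried it, and 1 epithelial cell held 2 UMIs. With the added hashtag cells Fgf10 stood at 6.79 and 43.5 CPM.

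Of the 9201 genes with at least 50 UMIs in mesenchymal cells, 2.95% were at least 2-fold lower and 2.48% at least 2-fold higher in ORFTOC, and the median log2 ratio was -0.09. Of the 5 ligand genes read there, Fgf7 and Fgf10 were past 2-fold, both lower, and Bmp4, Igf1 and Wnt4 were within 2-fold. The plot of levels by pool shows that the intervals of the pools overlapped for Bmp4, Igf1 and Wnt4 in mesenchymal cells and were apart for Fgf7 and Fgf10.

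**Figure D1:**
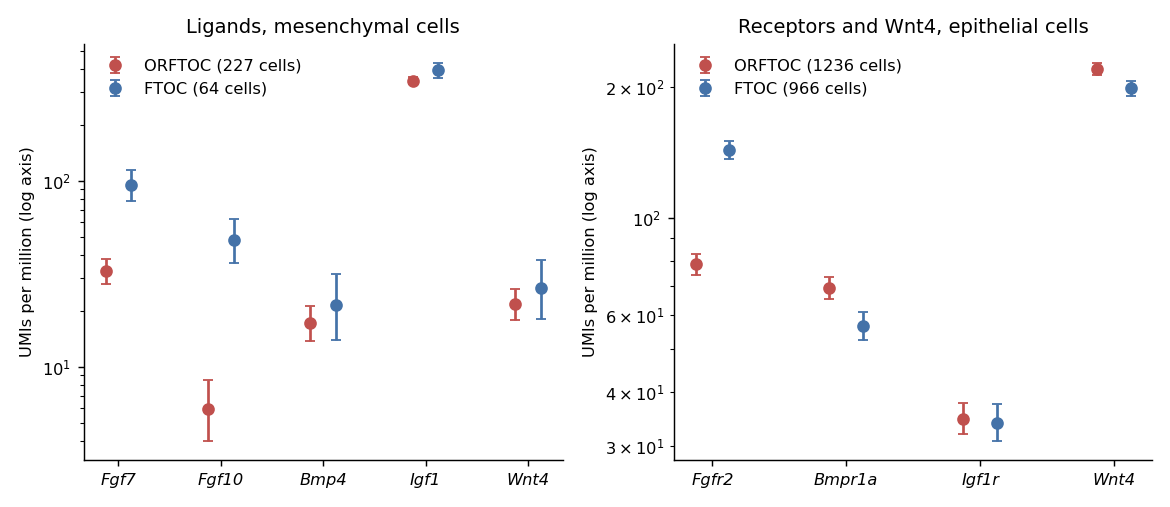
Levels of the ligand genes in mesenchymal cells (left) and of the receptor genes and Wnt4 in epithelial cells (right), in CPM on log axes. Points are the summed UMIs of a pool (1 sample per pool) and bars are exact Poisson 95% intervals. Fgf7, Fgf10 and Fgfr2 lie lower in ORFTOC, and Igf1r is at 34.7 and 34.0 CPM.

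Seen over a whole culture, the lower level per mesenchymal UMI met a larger number of mesenchymal cells. All ORFTOC cells together held 171 Fgf7 UMIs, or 40.3 per 1000 cells (34.5 to 46.8), and all FTOC cells held 115, or 27.7 per 1000 (22.9 to 33.3). As a share of all UMIs of the pool Fgf7 stood at 3.99 and 3.95 CPM. For Fgf10 the FTOC pool stayed higher, with 14.0 UMIs per 1000 cells (10.6 to 18.1) against 7.06 (4.77 to 10.1) in ORFTOC. Such sums over a pool do not by themselves tell fewer cells of a type from less RNA per cell. Per 100 mesenchymal cells, Fgf7 had 73.1 UMIs in ORFTOC and 173 in FTOC, and Fgf10 had 13.2 and 87.5. Depth also enters the counts per 1000 cells, with medians of 8030 UMIs per ORFTOC cell and 4919 per FTOC cell.

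The genes differed in the cells that held their transcripts. Mesenchymal cells held 97.1% of the Fgf7 UMIs of ORFTOC and 96.5% of those of FTOC, and 100% and 96.6% of the Fgf10 UMIs. Fgfr2 was epithelial, with 94.6% and 96.5% of its UMIs there, and so was Wnt4, with 96.4% and 97.2%. Bmp4 was mainly epithelial as well, with 66.5% of its UMIs in ORFTOC and 75.0% in FTOC, while mesenchymal cells held 31.0% and 18.9%. Igf1 had 2 main sources, mesenchymal cells with 47.0% and 50.4% of its UMIs, and macrophage-like cells (led by C1qa and Apoe) with 49.6% and 40.2%. The receptor genes Bmpr1a and Igf1r were spread more widely, with 70.4% and 77.2% of Bmpr1a UMIs and 49.9% and 58.2% of Igf1r UMIs in epithelial cells. Mesenchymal cells held 17.7% of the Bmpr1a UMIs in ORFTOC and 7.02% in FTOC, and 226 of 1199 and 58 of 725 Igf1r UMIs. The intervals of these shares and of the macrophage-like share of Igf1 were apart between the pools. Such shares depend on cell numbers too, with 227 and 64 mesenchymal and 135 and 43 macrophage-like cells. Within mesenchymal cells Bmpr1a was at 59.1 and 54.9 CPM and Igf1r at 44.5 and 49.7 CPM, with overlapping intervals.

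**Figure D2:**
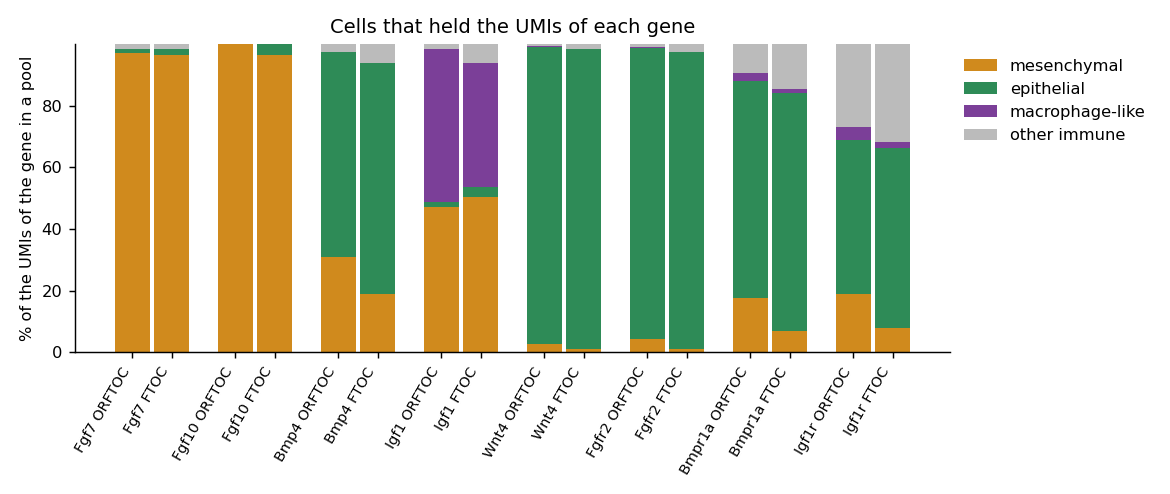
Share of the UMIs of each gene (%) held by mesenchymal, epithelial, macrophage-like and other immune cells, with 1 bar per gene and pool. Fgf7 and Fgf10 are almost wholly mesenchymal, Fgfr2 and Wnt4 epithelial, and Igf1 is divided between mesenchymal and macrophage-like cells. Other immune cells include cluster 14, which was led by Pth and Chga and not by immune markers.

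The mesenchymal cells formed 5 clusters, none of which met the rule for a name. Cluster 0 (76 cells) was led by Fabp4, Ren1 and Inmt, with Fgf10 among its 10 leading genes, so that its Fgf10 level is part of its definition. It held 63 Fgf7 UMIs in its 27 FTOC cells (140 CPM) and 29 in its 49 ORFTOC cells (36.4 CPM), a log2 ratio of -1.94 (-2.62 to -1.28). Of all Fgf10 UMIs in mesenchymal cells, this cluster held 49 of 56 in FTOC (109 CPM) and 16 of 30 in ORFTOC (20.1 CPM). In cluster 3, led by Col8a1, Crabp1 and Acta2, Fgf7 was at 38.9 CPM in 43 ORFTOC cells and 193 CPM in only 5 FTOC cells. In cluster 2, led by Bpifa1 and Spp1, it was at 18.3 and 41.1 CPM (log2 ratio -1.17, -2.29 to -0.06), and in cluster 1, led by Ccl19, Clu and Madcam1, at 21.5 and 45.9 CPM (-1.10, -2.37 to 0.31). Cluster 4, led by Igfbp6 and Nppc and also by the epithelial genes Krt18 and Krt5, had 46 ORFTOC cells and 1 FTOC cell. Single cells held much of the FTOC counts, with 12 of 16 Fgf7 UMIs in cluster 2, 5 of 8 in cluster 1 and 12 of 23 in cluster 3 in 1 cell each. Without the cell richest in Fgf7 in each pool, the log2 ratio was -1.92 (-2.67 to -1.20) in cluster 0 and -1.73 (-2.71 to -0.62) in cluster 3, but -0.08 (-1.90 to 2.35) in cluster 1 and 0.25 (-1.51 to 2.35) in cluster 2. Without these cells the interval thus stayed below 0 in clusters 0 and 3 and not in clusters 1 and 2. In cluster 3 only 3 of the 5 FTOC cells held the transcript, too few to set its level apart from single cells. Within ORFTOC, Fgf7 was at 40.5, 38.9 and 36.4 CPM in clusters 4, 3 and 0 and at 21.5 and 18.3 CPM in clusters 1 and 2, each interval overlapping that of the next. Within FTOC, clusters 3 and 0 stood at 193 and 140 CPM with intervals that overlapped.

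**Figure D3:**
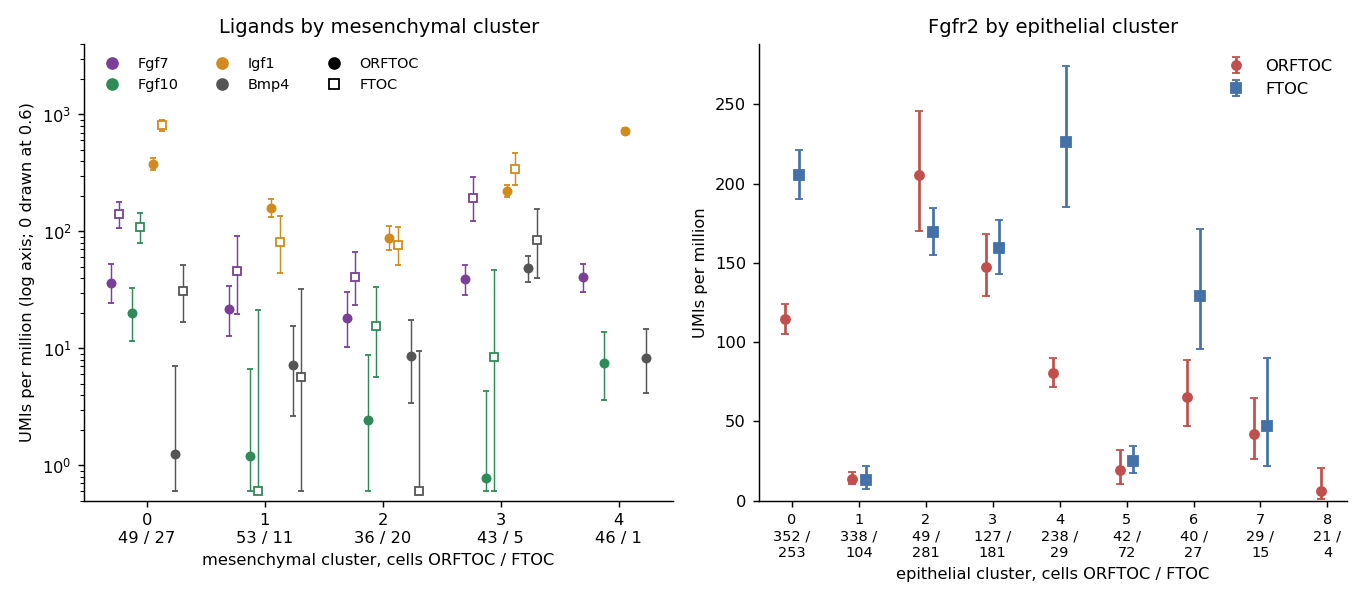
Left, Fgf7, Fgf10, Igf1 and Bmp4 in the 5 mesenchymal clusters (CPM, log axis), filled circles ORFTOC and open squares FTOC, leaving out groups under 5 cells. Right, Fgfr2 in the 9 epithelial clusters on a linear axis, with numbers of cells under each cluster and exact Poisson 95% intervals as bars. Fgf7 lies higher in FTOC in mesenchymal clusters 0 to 3, with 12 of the 16 FTOC UMIs of cluster 2 and 5 of the 8 of cluster 1 in 1 cell, and Fgfr2 lies lower in ORFTOC in epithelial clusters 0, 4 and 6.

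Fgf7 was found in 65.2% of the ORFTOC cells with an Fgf10 UMI, beside 33.5% of all ORFTOC mesenchymal cells, and in 69.6% of such FTOC cells, beside 48.4% of all. Igf1 was found in 78.3% of the ORFTOC cells with Fgf10, beside 76.2% of all, and in 87.0% of those of FTOC, beside 68.8%. At least 2 of the 5 ligand genes were found in 55.1% of ORFTOC and 59.4% of FTOC mesenchymal cells, and none in 15.4% and 17.2%. Cells with both FGF transcripts had a median of 19145 UMIs and cells with neither 17771, and the part of depth in these shares was not tested.

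The receptor of these ligands was lower in ORFTOC too. Fgfr2 had 1351 UMIs in 1236 ORFTOC epithelial cells, or 78.4 CPM (74.3 to 82.7), and 1785 in 966 FTOC cells, or 144 CPM (137 to 151). The log2 ratio was -0.87 (-0.98 to -0.77), or 1.83-fold higher in FTOC, within the 2-fold limit. It was found in 47.4% and 63.9% of the cells, and in 26.9% (24.4 to 29.6) and 44.5% (41.2 to 47.8) after thinning. Cells grouped as immune had the transcript in 0.503% (ORFTOC) and 0.770% (FTOC) of cells before thinning. Over both pools Fgfr2 was at 1.77 CPM in this group and at 47.7 CPM in its cluster 14, which was led by Pth and Chga and not by immune markers.

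Fgfr2 differed widely between epithelial clusters. Within ORFTOC the highest levels were those of cluster 2 (unnamed, led by Igfbp2, Ndrg1 and Aqp3) at 205 CPM and cluster 3 (Ccl21a mTEC-like, led by Lypd1) at 147 CPM, with cluster 0 (Ccl21a mTEC-like, with Krt14 and Krt15 among its leading genes) at 114 CPM and the cTEC-like cluster 4 (Psmb11, Prss16) at 80.2 CPM. Medullary TECs (mTECs) of the Ccl21a kind are basal-like cells that make the chemokine CCL21. Within FTOC the cTEC-like cluster 4 came first at 226 CPM and cluster 0 next at 205 CPM, with overlapping intervals, before clusters 2 and 3 at 169 and 159 CPM. The airway-like cluster 1 (Bpifa1, Reg3g) was far lower, at 13.7 CPM in ORFTOC and 13.2 CPM in FTOC. The pools differed in cluster 4, with 80.2 CPM in ORFTOC and 226 CPM in FTOC (log2 ratio -1.50, -1.82 to -1.16, from 29 FTOC cells), in cluster 6 (led by T cell genes), with 65.4 and 129 CPM (-0.98, -1.61 to -0.35), and in cluster 0, with 114 and 205 CPM (-0.84, -1.01 to -0.68). The intervals of the ratio held 0 in clusters 1, 2, 3, 5 and 7. The clusters were also present in unequal numbers, with 338 airway-like cells in ORFTOC and 104 in FTOC. With the 8 clusters that had at least 10 cells in both pools weighted alike, the log2 ratio was -0.45.

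The FGF list held 30 ligand, receptor and response genes, of which 21 could be counted in epithelial cells. None was at least 2-fold higher in ORFTOC and 4 were at least 2-fold lower, and the median log2 ratio was -0.48. Over all 13173 genes counted there, 4.44% were at least 2-fold higher and 4.12% lower, with a median log2 ratio of -0.0038. The 4 lower genes were Fgf13, Spry1, Spry4 and Etv5. Spry1 and Spry4 encode feedback inhibitors of FGF signalling and Etv5 a transcription factor induced by it. Etv5 was at 11.8 CPM in ORFTOC and 37.5 CPM in FTOC (log2 ratio -1.67, -1.92 to -1.43). Cluster 2, with 49 ORFTOC and 281 FTOC cells, held 42.9% of its FTOC UMIs. Within clusters 0, 2 and 3 Etv5 was at 20.9, 37.9 and 11.1 CPM in ORFTOC and 28.4, 64.7 and 62.7 CPM in FTOC. In cluster 5 it was higher in ORFTOC, at 5.12 and 3.92 CPM. Spry1 was at 51.0 and 113 CPM (-1.15, -1.27 to -1.03), and 796 of its 1407 FTOC UMIs were in cluster 2. Dusp6, a phosphatase of the same feedback, was within the limit at 75.8 and 111 CPM (-0.55). The 2 largest ratios in the list were 0.71 for Fgf1 and 0.69 for Fgfbp1, and the ligand gene with the most UMIs was Fgf21 at 103 and 78.7 CPM.

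The 13 FGF response and feedback genes summed to 297 CPM in ORFTOC epithelium and 450 CPM in FTOC (log2 ratio -0.60, -0.66 to -0.55). Within the 8 epithelial clusters with at least 10 cells in both pools the ratio ran from -0.17 in cluster 0 to -0.74 in cluster 6, a cluster that was led by T cell genes. All 8 intervals lay below 0. The sum was at 524 and 681 CPM in cluster 2, 404 and 546 CPM in the airway-like cluster 1, and 164 and 218 CPM in the cTEC-like cluster 4. Cluster 1 had nearly no Fgfr2, so the order of the clusters by this sum was not that by the receptor.

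**Figure D4:**
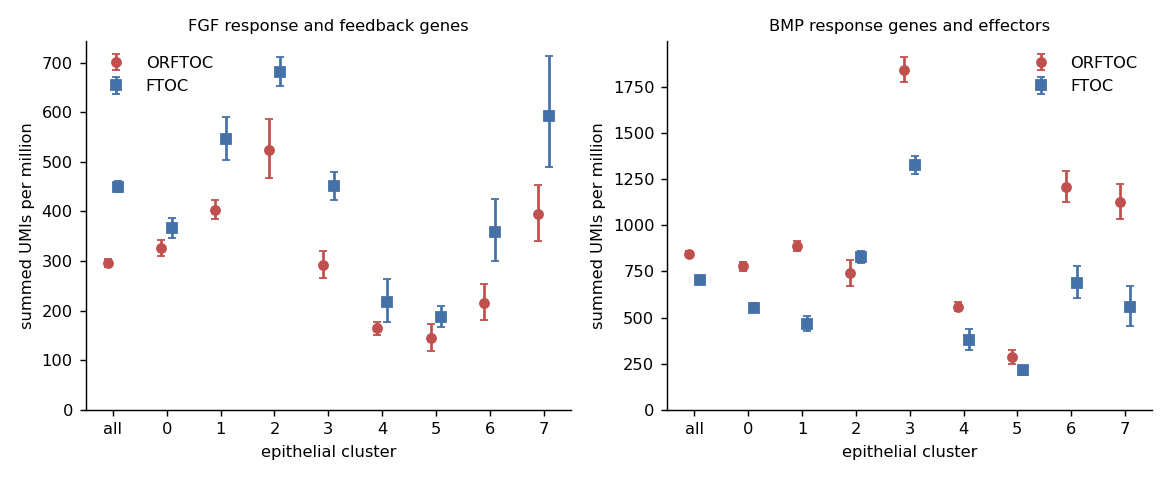
Summed levels (CPM) of the FGF response and feedback genes (left) and the BMP response genes and effectors (right) in all epithelial cells and in the 8 clusters with at least 10 cells in both pools, with exact Poisson 95% intervals. The FGF sum lies lower in ORFTOC in each cluster, and the BMP sum lies higher in ORFTOC in each cluster except cluster 2.

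In mesenchymal cells, where 2.95% of all genes counted were past 2-fold lower and 2.48% higher, 18 genes of the FGF list could be counted. Those lower in ORFTOC past 2-fold were Fgf7, Fgf10, Spry4 (12.0 and 39.4 CPM, log2 ratio -1.71) and Dusp6 (20.9 and 52.3 CPM, -1.32). Fgf21 was the only one higher, with 69 UMIs in ORFTOC and 2 in FTOC. Of these 69, 38 lay in cluster 4, which had 46 ORFTOC cells and 1 FTOC cell, and 12 in 1 cell of cluster 3. Fgfr1, the main FGF receptor gene of mesenchyme, was at 126 CPM in ORFTOC and 78.9 CPM in FTOC (0.68, 0.36 to 1.01).

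Bmp4 did not differ in mesenchymal cells beyond counting error. It had 87 UMIs in 36 ORFTOC cells and 25 UMIs in 13 FTOC cells, or 17.1 CPM (13.7 to 21.1) and 21.4 CPM (13.9 to 31.6), and the log2 ratio was -0.32 (-0.98 to 0.38). A single ORFTOC cell held 23 of the UMIs. Cluster 3 had most of the ORFTOC UMIs, 62 of 87 (48.2 CPM), while in FTOC cluster 0 held 14 of 25 (31.0 CPM) against 1 UMI in the ORFTOC cells of that cluster. With clusters 0, 1 and 2 weighted alike the ratio was -1.39. That mean left out cluster 3 and rested on few UMIs, with 1, 6 and 7 in ORFTOC and 14, 1 and 0 in FTOC, the 0 being set to 3. In epithelial cells the level was 10.9 CPM in ORFTOC and 7.97 CPM in FTOC (0.44, 0.09 to 0.81). Most of it came from the 44 ionocyte-like cells of cluster 7 (Foxi1, Ascl3), at 213 CPM in 29 ORFTOC and 289 CPM in 15 FTOC cells (-0.44, -0.92 to 0.06). No other cluster came near this level over both pools, the next being mesenchymal cluster 3 at 51.2 CPM.

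Bmpr1a, a type I BMP receptor gene, was slightly higher in ORFTOC epithelium. It had 1192 UMIs there, or 69.2 CPM (65.3 to 73.2), and 704 in FTOC, or 56.7 CPM (52.6 to 61.0), a log2 ratio of 0.29 (0.15 to 0.42) that is within 2-fold. The transcript was in 57.9% and 47.2% of cells, and in 29.7% (27.1 to 32.4) and 24.1% (21.4 to 27.1) after thinning. Among the epithelial clusters over both pools, the airway-like cells came first at 81.9 CPM (74.4 to 90.1) and the Aire mTEC-like cells last at 29.9 CPM (23.2 to 37.8), and mesenchymal cells were at 59.1 and 54.9 CPM in the pools. With clusters weighted alike the ratio was 0.13.

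Of 37 genes in the BMP list 29 were counted in epithelium, with a median log2 ratio of 0.26. In ORFTOC 3 were at least 2-fold higher and 1 lower, beside 4.44% and 4.12% of all genes counted there. The 3 higher were Bmper (74 and 9 UMIs, mostly in airway-like cells), Msx1 (3.83 and 1.13 CPM) and Smad7, a feedback inhibitor of the pathway, at 28.7 and 11.0 CPM (1.38, 1.10 to 1.66). The response genes with the most UMIs were within 2-fold: Id3 was at 245 and 198 CPM, Id1 at 221 and 167 CPM, Smad1 at 136 and 109 CPM, and Id2 at 128 and 139 CPM. Summed, the 11 response genes and effectors were at 847 CPM in ORFTOC and 702 CPM in FTOC (0.27, 0.23 to 0.31). Their intervals lay above 0 in 7 of the 8 clusters, up to 1.02 in the ionocyte-like and 0.93 in the airway-like cells, and below 0 in cluster 2 (-0.17).

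In mesenchymal cells 23 genes of the BMP list were counted. In ORFTOC 2 were past 2-fold higher and 2 lower, beside 2.48% and 2.95% of all genes counted there. Grem1, the gene of a secreted BMP antagonist, was past 2-fold higher in ORFTOC (52.0 and 21.4 CPM). Gdf10 (22.9 and 74.6 CPM) and Bmp2 (8.28 and 23.2 CPM) were past 2-fold lower. Cluster 3 held 50.6% of the FTOC Gdf10 UMIs, with 44 in 2 of its 5 FTOC cells and 36 of these in 1 cell. In clusters 0, 1 and 2 Gdf10 was at 39.0, 5.97 and 35.4 CPM in ORFTOC and 73.1, 5.74 and 23.1 CPM in FTOC. Fstl1, with the most UMIs, was at 963 and 996 CPM.

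Igf1 was abundant in mesenchymal cells of both pools. It had 1757 UMIs in ORFTOC, or 346 CPM (330 to 363), and 459 in FTOC, or 394 CPM (358 to 431), a log2 ratio of -0.18 (-0.33 to -0.03). It was found in 76.2% and 68.8% of the cells. This near equality held unlike clusters together. In cluster 0 the level was 378 CPM in ORFTOC and 806 CPM in FTOC (-1.09, -1.32 to -0.87), while the 46 ORFTOC cells of cluster 4 held 968 of the 1757 ORFTOC UMIs (725 CPM). Without cluster 4 the ratio was -0.91. The 178 macrophage-like cells reached 710 CPM in 135 ORFTOC cells and 646 CPM in 43 FTOC cells (0.14, -0.03 to 0.30). In epithelial cells Igf1 was near the floor, with 68 and 29 UMIs, and 1 ORFTOC cell held 46 of the 68. Over the whole pool there were 880.4 Igf1 UMIs per 1000 ORFTOC cells and 219.5 per 1000 FTOC cells, with more mesenchymal and more macrophage-like cells in ORFTOC. Depth differed too, with medians of 8030 and 4919 UMIs per cell. As a share of all UMIs of the pool Igf1 stood at 87.2 CPM in ORFTOC and 31.3 CPM in FTOC.

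Igf1r stood at nearly one level in the epithelial cells of both pools, at 34.7 CPM (32.0 to 37.6) in ORFTOC and 34.0 CPM (30.8 to 37.4) in FTOC. The log2 ratio was 0.03 (-0.15 to 0.21). Its level was highest over both pools in immune cluster 18, 25 cells led by Il1r1 and Cntn1, at 172 CPM (82.3 to 316), from 9 ORFTOC UMIs and 1 FTOC UMI. Immune cluster 2, led by Igfbp7, Chad and Il22, came next at 72.8 CPM, followed by mesenchymal cluster 0 at 65.8 CPM, mesenchymal cluster 3 at 58.3 CPM and cTEC-like cells at 52.9 CPM, and these intervals overlapped from each to the next. Both Ccl21a mTEC-like clusters had less in ORFTOC, with 19.9 and 35.4 CPM in cluster 0 (-0.83, -1.23 to -0.44) and 29 and 77 UMIs in cluster 3 (-0.92, -1.59 to -0.29).

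In epithelium 16 of 18 genes of the IGF list were counted, 1 past 2-fold higher and 4 past 2-fold lower in ORFTOC. The shares over all genes counted in epithelium were 4.44% higher and 4.12% lower. Of the 5 IGF genes past 2-fold, 3 (1 higher and 2 lower) encode binding proteins, which carry IGFs outside the cell. Binding proteins were 8 of the 16 genes counted. Igfbp5 was the higher gene, at 294 and 133 CPM (1.14, 1.06 to 1.22), and reached 640 and 131 CPM in Ccl21a mTEC-like cluster 3. Igfbp2 was lower, at 17.4 and 81.6 CPM (-2.23), and is a leading gene of cluster 2, with 281 of its 330 cells in FTOC. Igfbp6 had 7 and 303 UMIs, but 287 of the 303 lay in 5 Aire mTEC-like cells and 149 in a single cell. Igf2 had 10 and 75 UMIs, with 41 of the 75 in cluster 2. Grb10, an adaptor that dampens the receptor, was at 12.2 and 42.5 CPM. Igfbp4 had the most UMIs, at 354 and 479 CPM. In mesenchymal cells 16 genes were counted and Igfbp6 alone was past 2-fold, higher in ORFTOC at 365 and 142 CPM, with 1509 of its 1854 ORFTOC UMIs in cluster 4. Over all genes counted in these cells 2.48% were past 2-fold higher and 2.95% lower.

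Wnt4 was a gene of the epithelium. In mesenchymal cells it had 110 UMIs in ORFTOC, or 21.7 CPM (17.8 to 26.1), and 31 in FTOC, or 26.6 CPM (18.1 to 37.7), with a log2 ratio of -0.29 (-0.88 to 0.33). In epithelial cells it was at 220 CPM (213 to 228) and 199 CPM (191 to 207), a ratio of 0.15 (0.08 to 0.22), in 71.2% and 74.5% of cells. The cTEC-like cluster 4 had the highest level, 451 CPM in ORFTOC and 442 CPM in FTOC (0.03, -0.18 to 0.25). It was followed by the Ccl21a mTEC-like cluster 3 at 290 CPM over both pools, and the airway-like cells were at 81.4 CPM. Of the cTEC-like cells 238 were from ORFTOC and 29 from FTOC, and with clusters weighted alike the ratio was -0.19. In mesenchymal cells 9 of the 31 FTOC UMIs lay in the single FTOC cell of cluster 4. With the profile of near-empty droplets subtracted as free RNA, the mesenchymal ratio was -0.33.

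Of 49 genes in the WNT list 33 were counted in epithelium, with 5 past 2-fold higher in ORFTOC and 2 lower. Over all genes counted there the shares were 4.44% and 4.12%. The higher genes were the ligand genes Wnt5b, Wnt6 and Wnt7b, the antagonist gene Dkk2 (67 and 7 UMIs) and Sp5, a target gene of the pathway, at 7.72 and 2.01 CPM (1.94, 1.31 to 2.62). The lower genes were Wnt10b and Lgr5, the latter at 3.13 and 8.62 CPM. In mesenchymal cells 24 genes were counted, 3 higher and 2 lower, beside 2.48% and 2.95% of all genes counted in these cells. Wnt5a was higher at 31.9 and 13.7 CPM, as were Dkk2 at 33.3 and 13.7 CPM and Lgr6 with 57 and 5 UMIs. Of the 57 Lgr6 UMIs, 41 lay in cluster 4, which had 46 ORFTOC cells and 1 FTOC cell. Rspo3, which encodes a secreted enhancer of WNT signalling, was lower at 28.6 and 78.0 CPM (-1.45, -1.84 to -1.05), and so was Fzd4 at 15.6 and 39.4 CPM.

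**Figure D5:**
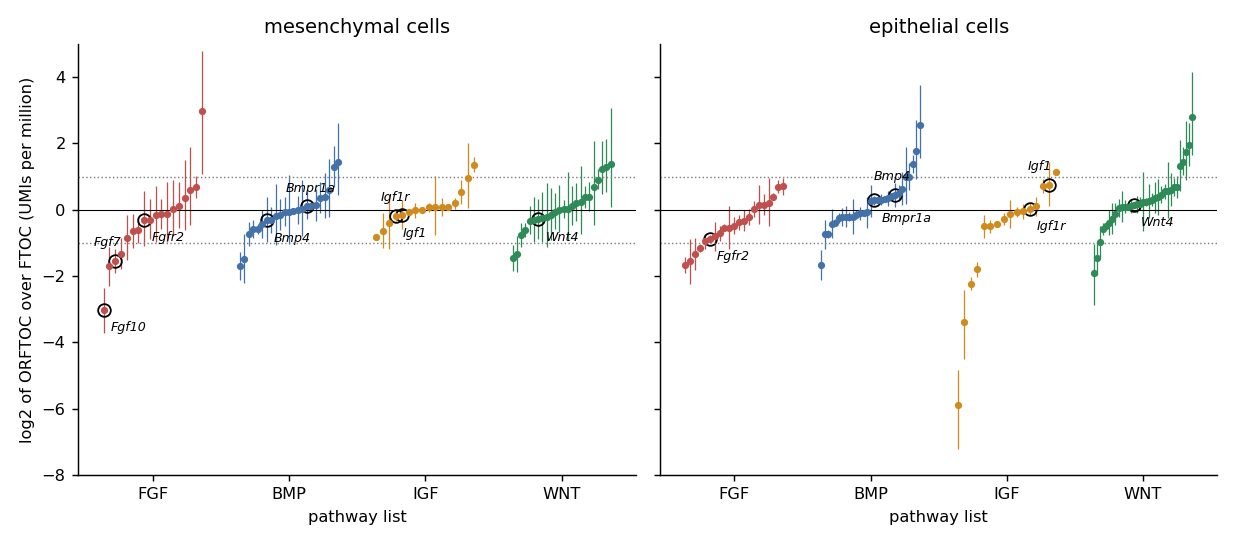
Log2 ratio of ORFTOC over FTOC for each gene of the 4 pathway lists with at least 50 UMIs, in mesenchymal (left) and epithelial cells (right), ordered by ratio within each list, with 95% intervals for counting error. Ringed points are the 8 genes described here, and dotted lines mark 2-fold. Fgf10 is the lowest point of the mesenchymal lists, and the FGF list of the epithelium lies mostly below 0.

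The genes whose levels ran most like those of each member were found over 56 groups of at least 20 cells (a cluster in 1 pool), as a description, since these groups share 1 library. Lama2 ran closest to Fgf7 (Pearson's r = 0.98), Mmp19 to Igf1 (0.94), and Jam2 to Bmp4 (0.81). Ttc23 ran closest to Wnt4 (0.95), Gfra4 and Trp63 to Fgfr2 (0.97 and 0.95), Nfib to Bmpr1a (0.94) and Mprip to Igf1r (0.78). Fgf10 had under 100 UMIs and was left out.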

How the data were processed

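Single cells of the 2 pools were measured in 1 lane of 5′ droplet sequencing with antibody hashtags, and the T cell receptor library was not used here. The deposited values are raw UMI counts per gene and barcode and raw hashtag counts, which the authors made with Cell Ranger 6.1.2 on mm10 (submitters' processing notes, which also name Seurat 4.2.0). From the 705161 barcodes (103984163 UMIs), those with at least 600 genes and 0.4 to 10% mitochondrial UMIs were kept (10245). Hashtags were assigned with HTODemux (positive quantile 0.99), which gave 8983 singlets, 590 doublets between pools and 672 barcodes with no hashtag. A further 591 cells were removed as doublets within a pool, because many of their 50 nearest neighbours were known doublets. Clustering used SCTransform with cell cycle regression, 18 principal components and a resolution of 0.4, or 1 for immune and mesenchymal cells (R 4.3.3, Seurat 5.3.0, sctransform 0.4.2). Clusters were named from marker lists.

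Counts were summed per pool and cell type (Python 3.11.15, numpy 2.4.6, scipy 1.17.1, pandas 2.3.3). Intervals were exact Poisson for CPM, Clopper-Pearson for shares of cells and exact conditional for log2 ratios, at 95%. UMIs are counting units, so the intervals cover counting error only. A count of 0 was set to a floor of 3 in ratios. Genes with at least 50 UMIs over both pools in a cell type were counted, and a ratio past 2-fold was called without a test. Shares of cells were also taken after thinning each cell to 5000 UMIs, which left out 2 ORFTOC mesenchymal cells, 67 ORFTOC and 63 FTOC epithelial cells, and 1293 and 2022 immune cells. Likeness was Pearson's r of log2(CPM + 10). Per pathway list, up to 4 genes with the most UMIs and up to 2 with the largest and 2 with the smallest ratio were named, and other genes past 2-fold were named after their values were seen. The 8 genes and the lists were chosen with earlier results of these data known. Some genes of the lists are not reported here.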

Additional observations from a re-analysis of the deposited data

Results flagged for a closer look

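In 6 cases a log2 ratio of ORFTOC over FTOC in 1 cluster lay with its whole interval on 1 side of 0. That of the same gene in another epithelial or mesenchymal cluster lay wholly on the other side. These cases come from 53 intervals compared, of which 18 did not hold 0, and the difference between clusters was not tested. Igf1 had a ratio of -1.09 in mesenchymal cluster 0 (-1.32 to -0.87) and 0.98 in mesenchymal cluster 1 (0.19 to 1.89). Without the cell richest in Igf1 in each pool these were -1.12 and 0.82 (-0.08 to 1.86). Igf1 in the Aire mTEC-like epithelial cluster 5 had a ratio of 2.43 (1.61 to 3.33), opposite to mesenchymal cluster 0 and to no epithelial cluster. It rested on 1 cell with 46 of 47 ORFTOC UMIs, and without the richest cells it was -2.03 (-7.50 to 0.87). Igf1r had ratios of -0.83 (-1.23 to -0.44) in Ccl21a mTEC-like cluster 0 and -0.92 (-1.59 to -0.29) in Ccl21a mTEC-like cluster 3, against 1.04 (0.06 to 2.03) in cluster 5, from 20 and 19 UMIs. Without the richest cells these were -0.84, -1.01 and 1.07 (-0.0016 to 2.15).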

How the results depend on the processing

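Of 131 alternatives for the 9 ratios, 121 moved the value by less than its counting interval and 10 moved it by more. None reversed a called value, and only Fgf7 and Fgf10 were called. Fgf10 stayed past 2-fold in 15 of 15 (-3.40 to -2.68) and Fgf7 in 14 of 15. The exception was the hashtag assignment by ratio, where Fgf7 was at -0.87. Leaving out cell cycle regression, using 30 principal components or doubling the resolution returned the main value for each mesenchymal ratio. Those alternatives therefore did not vary the mesenchymal results. With clusters weighted alike, chosen after seeing the data, Bmp4 was at -1.39 and Igf1 at 0.026 in mesenchymal cells. The Bmp4 value rested on clusters with at most 14 of its UMIs in a pool and on 1 count at the floor. Igf1 was also at -0.91 without cluster 4 (chosen after seeing the data), -0.41 with at least 1000 genes per cell and -0.34 with equal weight per cell. With epithelial clusters weighted alike, Fgfr2 was at -0.45, Bmpr1a at 0.13 and Wnt4 at -0.19, and Wnt4 was at 0.015 with equal weight per cell. Genes past 2-fold in mesenchymal cells numbered 487 higher and 540 lower with at least 20 UMIs, and 53 and 71 with at least 200. In epithelial cells 910 were lower with at least 20 UMIs, and 337 were higher and 203 lower with at least 200. The difference in the share of cells with a UMI, ORFTOC minus FTOC, was -4.04 points for Fgf10 and -11.4 for Fgfr2 when thinned to 2000 UMIs, and 10.7 for Bmpr1a unthinned. Other causes of these shifts were not tested. Leaving out the cell richest in a gene within each cluster, chosen after seeing the data, turned the direction of Fgf7 in mesenchymal cluster 2 from -1.17 to 0.25. The 64 FTOC mesenchymal cells limit what these data can show per cluster. No paired analysis was possible because each pool is 1 sample.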

Other observations

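All of Fgfr2, Bmpr1a and Igf1r had a UMI in 9.79% of ORFTOC and 11.3% of FTOC epithelial cells, and none of them in 18.1% and 15.3%. Singly they were found in 47.4%, 57.9% and 30.5% of ORFTOC cells and in 63.9%, 47.2% and 29.8% of FTOC cells. Mesenchymal cells also held receptor transcripts, with Bmpr1a in 64.3% of ORFTOC and 59.4% of FTOC cells and Igf1r in 58.1% and 51.6%.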
